A study of Bos taurus with 4 samples.

Results

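The genes described here encode the proteasome: the subunits of its core particle (PSMA and PSMB genes), those of the base and lid of its regulatory particle (PSMC and PSMD genes), and its activators, inhibitor and assembly chaperones (PSME, PSMF and PSMG genes). Genes were taken by gene symbol alone, although the list was chosen with earlier results of these data known. The bovine array carried 78 probes for 46 of these genes, among 21790 probes for 15229 genes with a symbol. The core accounted for 19 genes, the base and lid for 19, and the activators, inhibitor and chaperones for 8. The groups follow the symbols, so the base and lid group also holds assembly chaperones such as PSMD10. PSMD13 and PSME3 were not analysed here, as no probe was listed under either symbol. Blastocysts developed from slow-frozen morulae were compared with blastocysts developed from control morulae on 4 arrays of 1 slide, each holding 1 pool of each kind. All embryos were produced in vitro from oocytes of abattoir ovaries (breed label beef), and per the labels each pool held 7 expanded blastocysts collected 7 days after fertilization, whereas the methods allow fewer per pool. Slow-frozen morulae (treatment label SF) had been equilibrated in glycerol, cooled in straws in a controlled-rate freezer, stored in liquid nitrogen, warmed and cultured on. Control morulae (treatment label Control) went on in culture and are unfrozen according to the methods, although the cryopreservation label of both kinds of pool reads Yes. The slow-frozen pool was labelled with Cy5 on arrays 1 and 2 and with Cy3 on arrays 3 and 4. The pools came from separate cycles of fertilization and culture, so the spread between arrays includes the difference between cycles. Because pools were whole embryos whose RNA was amplified, fewer cells of a type and less RNA per cell cannot be told apart.

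The proteasome is the protease that degrades proteins tagged with ubiquitin in the cytoplasm and nucleus. Its core is a barrel of stacked rings, in which alpha subunits form the gated outer rings and beta subunits form the inner rings that hold the catalytic sites. The regulatory particle binds ubiquitinated proteins, removes the ubiquitin and, through a ring of ATPases, unfolds the protein into the core. In early mammalian embryos this pathway takes part in the removal of maternal proteins, and in most cells a shortage of proteasome activity raises transcription of the subunit genes together.

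Proteasome transcripts were well detected. A reading, meaning 1 probe in 1 dye on 1 array, counted as detected when, after subtraction of the local background, it was brighter than 95 percent of the 153 negative control spots in that dye. A gene was tested when at least 4 of its 8 readings were detected, which held for 45 of the 46 genes, and for 43 of them all 8 readings were detected with none saturated. By mean brightness, 32 of the 45 genes were among the 2958 brightest of the 11831 genes tested. Over all probes, 24638 to 31529 were detected in each dye and array. Trophectoderm markers were detected in all 8 readings for 6 of 6 genes with a probe and inner cell mass markers for 3 of 4. These counts fit the blastocyst label. Hypoblast markers were detected in all 8 readings for 2 of 3 genes with a probe. Among these lineage markers, the log2 ratio of slow-frozen over control varied most between arrays for NANOG (-2.19 to 3.24) and PDGFRA (-1.51 to 2.06). The inner cell mass marker LIN28B was higher on each array, at 0.55, 0.47, 0.12 and 1.39 (fitted 0.63 ± 0.22, a fold of 1.55). Its p in limma was 0.027 unadjusted and 0.9999 adjusted. The other markers of that list, POU5F1, SOX2 and NANOG, had fitted ratios of 0.38 ± 0.16, 0.07 ± 0.22 and 0.82 ± 0.87. Of 10 markers of cumulus and granulosa cells, 7 were detected in at least 4 readings, with a summed signal of 3172 to 5311 in slow-frozen pools and 3975 to 5024 in control pools. Markers of leukocytes (2 of 6 detected, summed signal 969 to 1210 against 962 to 1217) and of sperm (3 of 4 detected, 502 to 618 against 478 to 649) also had overlapping ranges. AMH, CD79A, ITGB2 and PRM2 had no detected reading, so the sums of these lists include background signal. The cumulus and granulosa sum mainly follows COL1A2, whose mean raw log2 signal was 11.38, against 7.70 for LUM, the next brightest. Among the tested markers of that list, VCAN had a fitted ratio of 0.02 ± 0.15 and the others lay lower. These ran from -0.52 ± 0.22 for LUM and -0.42 ± 0.17 for GJA1 to -0.10 ± 0.17 for PTX3, each with an adjusted p of 0.9999 in limma.

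No proteasome gene was called different between blastocysts developed from slow-frozen and control morulae. The effect is given as the log2 ratio of slow-frozen over control fitted over the 4 arrays with limma, with its SE (n = 4 arrays). With Benjamini-Hochberg adjustment over all tested probes, 0 of 45 genes had an adjusted p under 0.05 and the lowest adjusted p was 0.9999, and the share called among all 11831 genes was also 0%. At the threshold of the study, a fold change of at least 1.5 with an unadjusted p under 0.05, 0 of 45 proteasome genes passed, against 0.397% of all genes. An unadjusted p under 0.05 was reached by 1 proteasome gene (2.22%), PSMG4, against 1.89% of all genes. An exact sign-flip permutation test of 4 arrays cannot give a two-sided p below 0.125.

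The fitted ratios of the 45 genes ran from -0.29 to 0.37 with a median of -0.02, and the median of all genes tested was -0.00. Regardless of size, 16 proteasome genes (35.6%) lay higher and 29 lay lower in slow-frozen pools, whereas 49.0% of all genes lay higher. This split depended on how each array was scaled: with arrays centred on their median in place of loess, 5 of 45 (11.1%) lay higher, against 28.1% of all genes, and the median of all genes itself moved to -0.13. These shares were not matched for brightness. With that centring, the median among the 2958 brightest genes was -0.35 for the 32 proteasome genes there and -0.31 for all genes. The median size of the fitted ratio, regardless of sign, was 0.10 for proteasome genes and 0.10 for all genes. The same sign on all 4 arrays was seen for 0 proteasome genes on the higher side, against 3.52% of all genes, and for 1 gene on the lower side (PSMB5), against 4.01%. The 95% confidence interval lay within a 1.5-fold change in either direction for 29 of 45 genes (64.4%), and within a 2-fold change for 44 of 45 (97.8%). The corresponding shares of all genes were 66.3% and 97.0%. PSMC3 was the gene whose interval (-0.57 to 1.13) passed beyond a 2-fold change.

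**Figure D1:**
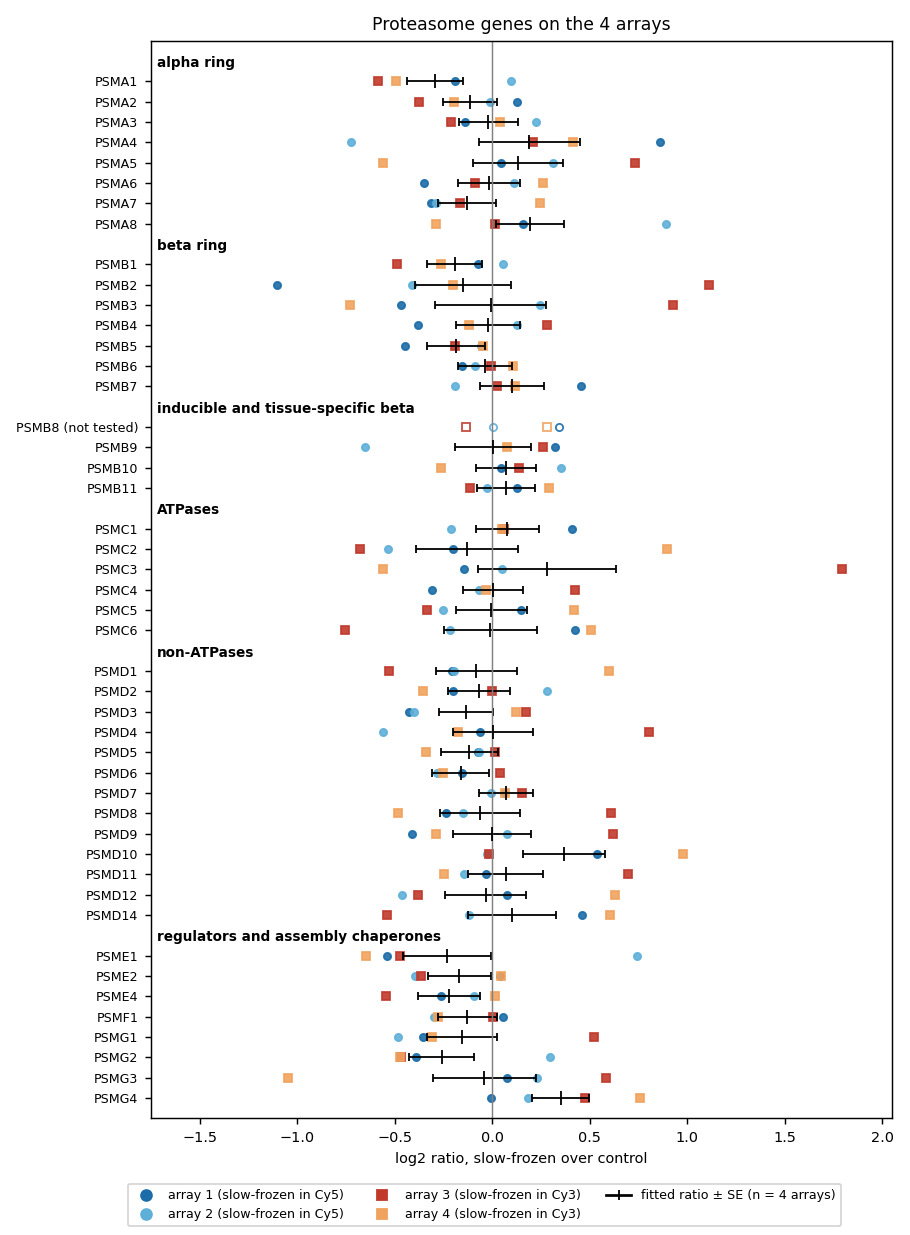
The log2 ratio of slow-frozen over control (x axis) is plotted for each of the 46 proteasome genes by role, with 1 point per array and a bar for the fitted ratio ± SE; open symbols mark PSMB8, which was not tested. Points of most genes lie on both sides of 0, and PSMC3 has the highest single ratio, 1.79 on array 3.

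The alpha ring, which gates entry into the core, had 3 of 8 genes higher and 5 lower, with a median of -0.02, and none passed the test. PSMA1, a constitutive subunit of this ring, had the lowest fitted ratio of all proteasome genes. Its normalised log2 intensity was 12.19, 12.30, 12.03 and 11.92 in slow-frozen pools and 12.37, 12.20, 12.61 and 12.41 in control pools on arrays 1 to 4. The slow-frozen pool was the lower on arrays 1, 3 and 4 and the higher on array 2, and the ranges of both groups overlapped. The fitted ratio was -0.29 ± 0.14, with a 95% confidence interval of -0.64 to 0.05. PSMA7, another constitutive subunit, had ratios of -0.31, -0.29, -0.16 and 0.24 (fitted -0.13 ± 0.15). PSMA8, an alpha subunit known from spermatocytes of the mouse, where it takes the place of PSMA7, was dim: 3 of its slow-frozen readings and 2 of its control readings were detected. Its ratios were 0.16, 0.89, 0.01 and -0.29 (fitted 0.19 ± 0.18), so that its lean to the higher side came mainly from array 2: without that array the fitted ratio was 0.01. PSMA4 showed the widest swing in the ring, from 0.86 on array 1 to -0.72 on array 2.

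The beta ring holds the catalytic sites. Of its 7 constitutive genes, PSMB7 lay higher and the other 6 lay lower, with a median of -0.04. PSMB5, the chymotrypsin-like subunit and the main target of proteasome inhibitor drugs, was lower in the slow-frozen pool of every array. Its normalised log2 intensity was 12.77, 12.79, 12.79 and 12.70 in slow-frozen pools and 13.22, 12.85, 12.98 and 12.75 in control pools. The slow-frozen values were close to one another, and the control value of array 4 fell within their range, so the groups overlapped. The ratio was -0.45 on array 1 and between -0.19 and -0.05 on the others, giving a fitted ratio of -0.19 ± 0.15, and -0.09 without array 1.

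PSMB6, the caspase-like subunit, differed little on any array at its brightest probe. On arrays 1 to 4 the normalised log2 intensity of PSMB6 was 14.14, 13.95, 14.09 and 14.29 in slow-frozen pools and 14.30, 14.04, 14.10 and 14.18 in control pools, with a fitted ratio of -0.04 ± 0.14. A second, dimmer PSMB6 probe varied more, with ratios of -0.48, 0.17, 0.79 and -0.40 (fitted 0.02 ± 0.23). PSMB7, the trypsin-like subunit, read 13.13, 12.99, 13.00 and 12.93 in slow-frozen pools and 12.67, 13.18, 12.98 and 12.82 in control pools. The fitted ratio of PSMB7 was 0.10 ± 0.16 and rested on array 1 (ratio 0.46): without it the value was -0.06. Among the structural beta subunits, PSMB1 had ratios of -0.07, 0.05, -0.49 and -0.26 (fitted -0.19 ± 0.14). PSMB2 ran from -1.10 on array 1 to 1.11 on array 3, and PSMB3 from -0.73 on array 4 to 0.93 on array 3, so both passed a 1.5-fold difference in opposite directions.

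The inducible subunits PSMB8, PSMB9 and PSMB10 replace PSMB5, PSMB6 and PSMB7 in the immunoproteasome, which is formed in immune cells and after interferon and trims peptides for antigen presentation. PSMB8 was detected on 1 array in slow-frozen pools and on 1 in control pools and was therefore not tested. It read 7.25, 6.96, 7.16 and 7.00 (normalised log2 intensity) in slow-frozen pools and 6.91, 6.95, 7.30 and 6.72 in control pools, which overlap near the detection limit. PSMB9 was detected in 4 slow-frozen and 3 control readings, at 7.79, 7.44, 7.26 and 7.70 against 7.47, 8.09, 7.00 and 7.62. Its fitted ratio was 0.00 ± 0.19, with array 2 on the lower side (-0.65) and the other arrays on the higher side. PSMB10 was detected in all 8 readings, at 8.55, 8.74, 8.21 and 8.32 in slow-frozen pools and 8.51, 8.39, 8.08 and 8.58 in control pools. Its fitted ratio was 0.07 ± 0.15, the slow-frozen pool being the higher on arrays 1 to 3. PSMB11, the subunit of the thymoproteasome of cortical thymic epithelium, was dim, and its ratios were 0.13, -0.03, -0.11 and 0.29 (fitted 0.07 ± 0.15).

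The fitted ratios of the 3 tested inducible and tissue-specific genes lay on the higher side by 0.00 to 0.07, each less than its SE. In the RefSeq gene order of cattle, PSMB8, TAP1 and PSMB9 lie next to one another on chromosome 23, and PSMB5 lies next to PSMB11 on chromosome 10. PSMB5 and PSMB11 did not share a sign on each array: PSMB5 was lower on all of them, whereas PSMB11 was higher on arrays 1 and 4.

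**Figure D2:**
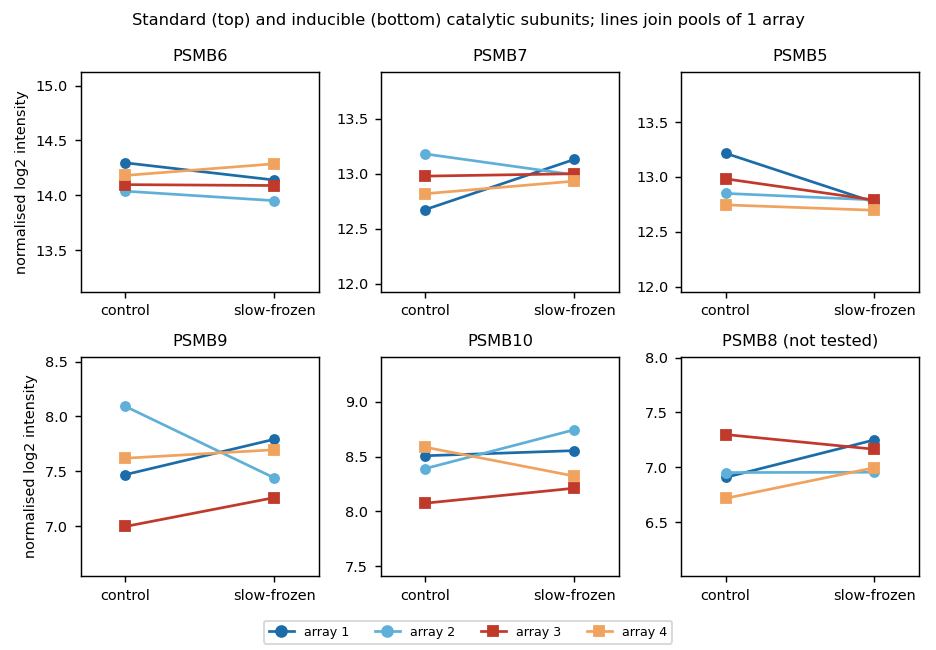
Normalised log2 intensity (y axis, same span in each panel) of the constitutive catalytic subunits PSMB6, PSMB7 and PSMB5 (top) and the inducible PSMB9, PSMB10 and PSMB8 (bottom) in control and slow-frozen pools, with a line joining the pools of 1 array. Lines of PSMB5 go down on each of the 4 arrays by 0.05 to 0.45, and lines of the other genes cross.

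The ATPases PSMC1 to PSMC6 form the ring that unfolds substrates. Of these, 3 lay higher and 3 lower, with a median of -0.00. PSMC3, which in yeast and mammals helps to open the gate of the core, varied more than any other proteasome gene, with an SD of 1.04 between its 4 ratios. Its normalised log2 intensity was 11.96, 11.23, 12.39 and 11.38 in slow-frozen pools and 12.10, 11.18, 10.60 and 11.94 in control pools. Array 3 set the value: its control pool was the lowest of the 8 and its slow-frozen pool the highest, a ratio of 1.79 against -0.56 on array 4. The fitted ratio was 0.28 ± 0.35, and it was -0.31 without array 3 and 0.87 without array 4. In those 2 fits the array left alone in its dye orientation weighed as much as arrays 1 and 2 together. A second PSMC3 probe gave 0.70, 0.08, 0.61 and 0.07 (fitted 0.37 ± 0.18), so the size of the array 3 value was not shared by both probes; its array 1 spot had been marked to be ignored by the scanner software.

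PSMC2 had ratios of -0.20, -0.54, -0.68 and 0.90, with a fitted ratio of -0.13 ± 0.26 that became -0.52 without array 4 and 0.26 without array 3. PSMC6 likewise ran from -0.75 on array 3 to 0.51 on array 4. PSMC1 stayed closer to 0, at 0.41, -0.21, 0.06 and 0.05 (fitted 0.08 ± 0.16). On array 4 the median of the 6 ATPases was 0.24, and on array 2 it was -0.22, so that the ring did not keep a direction between pools.

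The non-ATPase (PSMD) genes include those of the scaffold, the ubiquitin receptors and the lid, where PSMD14 removes ubiquitin from substrates. Assembly chaperones such as PSMD10 also carry this symbol and were counted here. Of 13 genes, 5 lay higher and 8 lower, with a median of -0.03. PSMD10 (gankyrin), a chaperone that holds ATPases during assembly and is known as an oncoprotein in liver, had the highest fitted ratio of all proteasome genes. Normalised log2 intensities of PSMD10 were 11.52, 11.61, 11.16 and 12.00 in slow-frozen pools and 10.98, 11.63, 11.18 and 11.02 in control pools. The slow-frozen pool was above the control pool by 0.54 on array 1 and 0.98 on array 4, and the pools were within 0.03 of each other on arrays 2 and 3. The fitted ratio was 0.37 ± 0.21, with a 95% confidence interval of -0.13 to 0.87. It was 0.12 without array 4, 0.62 without array 3 and 0.09 with median centring.

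The scaffold and lid genes gave smaller values. PSMD6, a lid subunit, had ratios of -0.15, -0.28, 0.04 and -0.25 (fitted -0.16 ± 0.14). PSMD3, another lid subunit, had ratios of -0.43, -0.40, 0.17 and 0.12 (fitted -0.13 ± 0.14), so its sign followed the dye: it was lower where the slow-frozen pool carried Cy5 and higher where it carried Cy3. With each gene read from its brightest probe, PSMD3 was the 1 proteasome gene split this way (2.22%), against 15.3% of all genes. PSMD7, a lid subunit that pairs with PSMD14, was the steadiest proteasome gene, at 0.06, -0.01, 0.15 and 0.06 (fitted 0.07 ± 0.14, SD of the ratios 0.07). PSMD14 itself had a fitted ratio of 0.10 ± 0.22, and the ubiquitin receptor PSMD4 one of 0.00 ± 0.20.

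The activators, inhibitor and chaperones had the lowest median of the groups, -0.16, with 7 of 8 genes lower and PSMG4 higher, and none passed the test after adjustment. PSMG4 forms with PSMG3 a chaperone of alpha ring assembly. Normalised log2 intensities of PSMG4 were 10.79, 11.11, 10.87 and 11.45 in slow-frozen pools and 10.80, 10.93, 10.40 and 10.70 in control pools. The slow-frozen pool was the higher on arrays 2 to 4 and was 0.01 below the control pool on array 1, and the ranges overlapped. The fitted ratio was 0.35 ± 0.15, a fold change of 1.28, with a 95% confidence interval of 0.00 to 0.70 and an adjusted p of 0.9999 in limma. With median centring it was 0.09, and as the mean of both PSMG4 probes it was 0.17. A second PSMG4 probe gave -0.53, -0.59, 0.54 and 0.52 (fitted -0.02 ± 0.14), so its sign followed the dye. It was on the lower side on arrays 1 and 2, where the first probe was at -0.01 and 0.18.

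PSMG2, which works with PSMG1 in alpha ring assembly, had the lowest fitted ratio of this group. Normalised log2 intensities of PSMG2 were 12.79, 12.86, 12.63 and 12.80 in slow-frozen pools and 13.18, 12.57, 13.09 and 13.27 in control pools. Array 2 stood apart with a ratio of 0.30, against -0.39 to -0.47 on the other arrays, and the fitted ratio was -0.26 ± 0.17. A second PSMG2 probe gave -0.82, 0.10, 0.65 and -0.52 (fitted -0.15 ± 0.25), and in it array 2 did not stand apart. PSMG1 lay in the same direction (fitted -0.16 ± 0.18), and PSMG3 had ratios from -1.05 on array 4 to 0.58 on array 3. PSME4, the activator known as PA200 with a role in histone degradation in spermatids of the mouse, had ratios of -0.26, -0.09, -0.54 and 0.01 (fitted -0.22 ± 0.16). PSME1 and PSME2, the interferon-responsive subunits of the PA28 activator, had fitted ratios of -0.23 ± 0.23 and -0.17 ± 0.16, and PSMF1, the inhibitor PI31, had -0.13 ± 0.15.

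**Figure D3:**
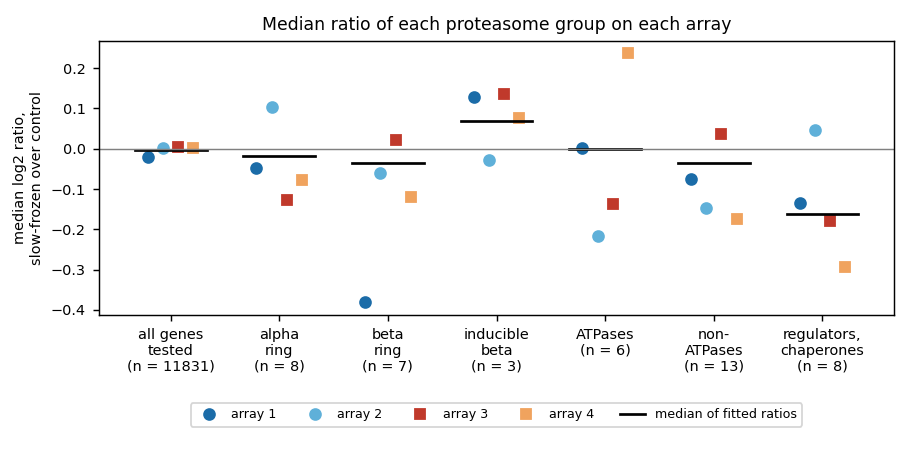
Median log2 ratio of slow-frozen over control (y axis) of each proteasome group on each array, beside the median of all 11831 genes tested, with a bar for the median of the fitted ratios. Medians of all genes run from -0.02 to 0.00, whereas the beta ring was at -0.38 on array 1 and the ATPases ran from -0.22 on array 2 to 0.24 on array 4.

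The ratios of a gene varied between arrays by more than the typical fitted ratio. The SD of the 4 ratios of a gene had a median of 0.33 for proteasome genes and 0.34 for all genes, and within the proteasome it was 0.27 for the core, 0.35 for the activators, inhibitor and chaperones and 0.46 for the base and lid. On single arrays, 20 of 45 genes (44.4%) passed a 1.5-fold difference at least once, against 41.7% of all genes. It was passed in both directions by 5 of the 45 (11.1%), against 9.23% of all genes. Arrays 1 and 2 held 2 and 4 genes past a 1.5-fold difference (4.44% and 8.89%, against 11.6% and 13.8% of all genes). Arrays 3 and 4 held 10 and 9 (22.2% and 20.0%, against 16.3% and 15.5%). On array 3 the 8 genes past this size on the higher side were PSMA5, PSMB2, PSMB3, PSMC3, PSMD4, PSMD8, PSMD9 and PSMD11. On array 4 the 6 genes were PSMC2, PSMD1, PSMD10, PSMD12, PSMD14 and PSMG4.

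Arrays 3 and 4, which share a dye orientation, gave opposite signs for 31 of 45 proteasome genes (68.9%), against 57.4% of all genes. Arrays 1 and 2, which share the other orientation, did so for 26 of 45 (57.8%), against 49.6%. Across the 45 genes, which share the same pools and are not independent, the ratios of arrays 3 and 4 correlated at r = -0.44, those of arrays 2 and 4 at r = -0.44 and those of arrays 1 and 4 at r = 0.39. Over all tested probes, not matched for brightness, the same array pairs gave -0.21, -0.28 and -0.00. The remaining pairs (arrays 1 and 2, 1 and 3, 2 and 3) gave -0.19, -0.23 and -0.01 across the 45 genes. Over all tested probes these remaining pairs gave 0.02, -0.17 and 0.04. These are descriptions of 4 pairs of pools, and no test was attached to them. The median of the proteasome genes was -0.07, -0.07, 0.01 and -0.05 on arrays 1 to 4, and the number of genes on the higher side was 18, 16, 24 and 21 of 45. For the base and lid these numbers were 7, 3, 11 and 10 of 19. As shares, the proteasome genes were at 40.0%, 35.6%, 53.3% and 46.7%, and the base and lid at 36.8%, 15.8%, 57.9% and 52.6%. Of all genes tested, 47.6%, 50.2%, 50.8% and 50.2% lay higher on arrays 1 to 4.

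Several probes were present for 20 proteasome genes, and 31 further probes of 19 genes were tested. None of the 76 tested probes of proteasome genes passed the threshold of the study. The fitted sign of a further probe differed from that of the brightest probe in 10 of 31 cases, against 1948 of 4497 over all genes. On single arrays both probes had the same sign in 72 of 124 cases (58.1%), against 58.0% over all genes with several probes. The difference between fitted ratios of probes of a gene had a median of 0.10 (0.14 over all genes) and was largest for PSMG4, at 0.37. All 31 further probes lay within 2 combined SE of the brightest probe of their gene, as did 4395 of 4497 over all genes. For PSMA2 the 5 further probes ran from -0.26 to 0.05, around the -0.11 ± 0.14 of its brightest probe.

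**Figure D4:**
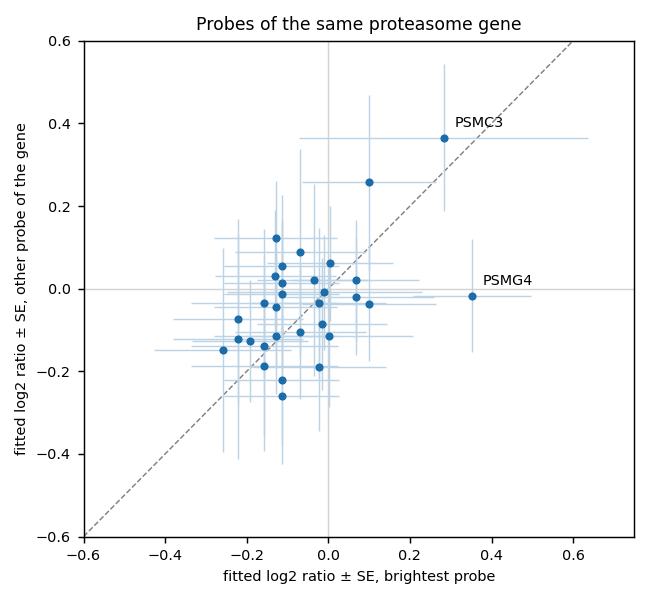
Fitted log2 ratio ± SE of the brightest probe (x axis) and of each of the 31 further tested probes of the same proteasome gene (y axis), with the line of equality dashed. Points scatter around 0 with SE bars longer than most distances from the line, and PSMG4 lies farthest from it (0.35 against -0.02).

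Other genes of the pathway were read from a list of 45 genes that bind, assemble, feed or regulate the proteasome, of which 36 had a probe and were tested. None had an adjusted p under 0.05 in limma, an unadjusted p under 0.05 or passed the threshold of the study. Of the 36, 21 lay higher (58.3%, against 49.0% of all genes) and 15 lower, with a median of 0.02. With median centring 9 of 36 lay higher, where 28.1% of all genes did. Of 11 factors bound to the proteasome or needed for its assembly, 3 lay higher. POMP, the chaperone of beta ring assembly, was higher on each array, at 0.26, 0.12, 0.07 and 0.45 (fitted 0.23 ± 0.15), but the fitted ratio was 0.01 with median centring.

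Of 10 shuttle factors and parts of the segregase, 5 lay higher. VCP, the ATPase that extracts ubiquitinated proteins from membranes and complexes, was also higher on each array, at 0.43, 0.33, 1.00 and 0.04 (fitted 0.45 ± 0.19). A second VCP probe gave -0.25, -0.59, -0.16 and 0.01 (fitted -0.25 ± 0.15), so the probes of this gene had opposite signs on arrays 1 to 3, and their mean had a fitted ratio of 0.10. NSFL1C, the VCP cofactor known as p47, had ratios of 0.19, -0.04, 1.57 and -0.05 (fitted 0.42 ± 0.26), and without array 3 the fitted ratio was 0.01. Its 2 further probes had fitted ratios of 0.24 ± 0.24 and -0.02 ± 0.18.

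The ubiquitin-activating enzyme UBA1 had ratios of -0.19, 0.25, 0.39 and 0.56 (fitted 0.25 ± 0.15, and -0.01 with median centring). Among genes that control transcription of proteasome subunits, 8 of 9 lay higher with a median of 0.09, against 49.0% of all genes. The count became 3 of 9 with median centring, against 28.1% of all genes. It became 4 of 9, against 48.9%, when the mean in place of the median spot signal was used. NFE2L1, the factor that raises subunit transcription when proteasome activity is short, had a fitted ratio of 0.10 ± 0.14. Its further probes had fitted ratios of 0.08 ± 0.15 and -0.24 ± 0.22, so the probes of NFE2L1 did not share a sign. MAFG, the small partner of NFE2L1, had ratios of 1.23, 0.12, 0.28 and -0.08 (fitted 0.39 ± 0.21, and 0.11 without array 1). Among genes tied to interferon control of the inducible subunits, IRF1, NLRC5, TAP1 and TAP2 had fitted ratios of 0.00, 0.03, 0.11 and 0.19, with SEs of 0.14 to 0.28.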

How the data were processed

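Intensities were measured on EmbryoGENE bovine arrays in 2 colours. The deposited scanner files gave a signal intensity and a local background intensity per spot and dye, without normalization, which the authors made from amplified RNA with ULS labelling and a Tecan scan read in Array-Pro. The deposited value table held the log2 ratio of Cy5 over Cy3 as processed by the authors in FlexArray (background subtraction, lowess and quantile normalization); it correlated with the ratios computed here at 0.938 to 0.993 and was used as an alternative. From the median intensities, normexp background correction (offset 50), loess within each array and a limma fit (limma 3.58.1, R 4.3.3) of treatment with a dye term were computed, with moderated SEs and Benjamini-Hochberg adjustment over 30473 tested probes. The SE leaves out differences between dye orientations. Levels per pool are log2 intensities after a further quantile normalization of average intensities. Each gene was read from its brightest probe. The members of the proteasome list and the partner and marker lists were chosen with earlier results of these data known. Named genes were the 3 with the smallest p in each role, those with 1 sign throughout the 4 arrays, the inducible subunits with their counterparts and the gene not tested; values of other genes were added to describe the spread between arrays. For partner genes the 5 with the smallest p were named by rule, and NFE2L1 and the interferon group were added. Figures were drawn with matplotlib 3.10.9. Precision is set by having 4 arrays. Alternatives covered background correction, normalization, spot signal, filter, dye term, probe choice and leaving out each array. Fits without 1 array kept the dye term, so the array left alone in its dye orientation weighed as much as the other 2 together. A few lines of summary statistics and 8 spots without a probe name per array were left out. No sequences are shown.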

Additional observations from a re-analysis of the deposited data

Results flagged for a closer look

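Of 28 sets of 4 array values examined for a single value far from the rest (19 named proteasome genes, 5 partner genes and 4 group medians), 2 held one, and chance gives about 1 in 20. PSMG2 was at 0.30 on array 2 while the other arrays were between -0.47 and -0.39, the gap being 0.894 of the whole range. A second PSMG2 probe did not share this pattern, at 0.10 on array 2 and 0.65 on array 3. NSFL1C was at 1.57 on array 3 while the other arrays were between -0.05 and 0.19, the gap being 0.851 of the whole range. Its further probes were at 0.70 and 0.11 on array 3.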

How the results depend on the processing

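No proteasome gene had an adjusted p under 0.05 in limma under any of the 15 alternatives run. With median centring in place of loess, 1 proteasome gene (PSMA1, fitted ratio -0.60) passed the threshold of the study, 5 lay higher, and the medians were -0.32 for proteasome genes, -0.33 for the core, -0.31 for the base and lid and -0.45 for the activators, inhibitor and chaperones. Under that setting the median of all genes among the 2958 brightest, which held 32 of 45 proteasome genes, was -0.31, and that of these 32 was -0.35. The part of brightness in the proteasome medians was not tested. Leaving out 1 array at a time, 0 to 1 proteasome genes passed the threshold of the study (PSMD10 without array 3, PSMC3 without array 4), and 0 to 2 partner genes did (MAFG without array 2, NSFL1C and VCP without array 4). The median ranged from -0.082 (without array 3) to -0.029 for proteasome genes, from -0.095 (without array 2) to 0.0088 for the core, and from -0.1096 (without array 3) to 0.0855 (without array 2) for the base and lid. Without array 4, 22 of 45 proteasome genes lay higher. The median of the activators, inhibitor and chaperones stayed below 0 in each of these fits, at -0.23 to -0.10. Over all genes with a symbol, the threshold of the study was passed by 47 genes in the main fit made here, which is not the paper's own count. It was passed by 243 with median centring, 6 with the mean spot signal and 109 to 410 with 1 array left out. An unadjusted p under 0.05 in limma was reached by 1 proteasome gene in the main fit, 8 with median centring (17.8%, against 7.74% of all genes) and 0 to 3 under the other alternatives. Of 24 named fitted ratios, 16 kept their sign under every alternative. The fit is paired by construction, since each array ratio sets 1 slow-frozen pool against 1 control pool. With 4 arrays, the median 95% confidence interval reached 0.39 to either side of the fitted ratio.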
